A study of Mus musculus with 15 samples.

Results

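The miR-191 and miR-425 cluster is a pair of neighbouring microRNA (miRNA) hairpins whose 4 mature products, mmu-miR-191-5p, mmu-miR-191-3p, mmu-miR-425-5p and mmu-miR-425-3p (mmu- marks the mouse miRNA and is left out from here on), were taken by name from a table of 1205 miRNA rows. All 4 were found, each in a row of its own, and all 4 were among the 426 miRNAs that passed the filter on low counts. The plasma libraries came from male wild-type C57BL/6J mice, 24 h after surgery. Of the 15 libraries, 9 were from mice with cecal ligation and puncture (CLP), in which the cecum is tied and pierced so that gut bacteria enter the abdomen, as a model of polymicrobial sepsis, and 6 were from mice with a sham operation. Small RNA was read from plasma spun to remove cells and platelets, and the libraries held between 5274676 and 13576482 counts each. The labels do not say that every library is a separate animal, so p-values and errors measure the spread between these libraries. The cluster was chosen by its levels in CLP against sham plasma in these same libraries, so those levels and the arm ratios are given as a description, with no test.

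A miRNA hairpin is cut to a short duplex of a 5p and a 3p strand, of which one is usually loaded into an Argonaute protein and kept while the other is degraded. The 2 hairpins lie close together and are known to be transcribed together as 1 primary transcript. miR-191-5p is abundant in many tissues and in blood, and miR-191-5p and miR-425-5p have both been used as reference miRNAs for scaling plasma and serum measurements. In human, miR-425-5p is a known repressor of NPPA, which encodes atrial natriuretic peptide.

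The mature sequences are shown because each arm has its own seed, the bases 2 to 8 from the 5′ end through which a miRNA pairs with its targets. The sequences are from RefSeq on GRCm38.p6, where all 4 members matched, and the seed is in capitals.
miR-191-5p: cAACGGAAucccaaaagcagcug
miR-191-3p: gCUGCACUuggauuucguuccc
miR-425-5p: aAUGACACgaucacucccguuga
miR-425-3p: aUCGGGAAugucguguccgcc
No 2 of the members share a seed. In the RefSeq table the seed of miR-425-5p is shared with miR-489-3p, and the seeds of the other 3 with 0 other mature miRNAs. The GC content is 52.2% for miR-191-5p, 54.5% for miR-191-3p, 47.8% for miR-425-5p and 61.9% for miR-425-3p.

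The hairpins are shown with both mature arms in capitals, so that the position of each arm in its precursor can be seen.
Mir191: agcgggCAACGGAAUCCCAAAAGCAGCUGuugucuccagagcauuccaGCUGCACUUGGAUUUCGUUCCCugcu
Mir425: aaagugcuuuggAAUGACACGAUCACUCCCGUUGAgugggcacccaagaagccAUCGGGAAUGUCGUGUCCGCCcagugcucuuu
On mm10 (GRCm38), Mir191 spans 108568319 to 108568392 and Mir425 spans 108568777 to 108568861, both on the plus strand of chromosome 9 and 384 bases apart. In GENCODE M21 both hairpins lie wholly inside exon 1 of a transcript of the long noncoding RNA gene 4833445I07Rik, which is 108567533 to 108569174 on the plus strand. The protein-coding gene Dalrd3, an intron of which holds the cluster in human, begins 1024 bases downstream of Mir425 in this annotation. A predicted miRNA gene, Gm24083, covers Mir191 on the minus strand. None of the 60 values of the 4 members was a fraction, as would arise if reads were divided between similar miRNAs.

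The 4 products of the cluster did not move as a unit between CLP and sham plasma. miR-191-5p, by far the most abundant member, was much lower in CLP plasma, whereas its partner strand miR-191-3p and both arms of miR-425 were somewhat higher. Levels are in CPM, counts scaled to the size of the library, after correction of library sizes by TMM. That method assumes that most miRNAs do not differ between libraries. In the edgeR quasi-likelihood fit over all 426 tested miRNAs, 201 had an adjusted p under 0.05, or 47.2%, with 108 of them (25.4%) higher and 93 (21.8%) lower in CLP. Scaled by library size alone, the same fit called 90 higher and 126 lower. These shares describe the whole table, and no call is given for the 4 members, which this contrast chose.

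miR-191-5p lay between 1648 and 9953 CPM in the 9 CLP libraries, with a median of 5864 CPM, and between 31475 and 41940 CPM in the 6 sham libraries, with a median of 36891 CPM. Every CLP library was below every sham library, a pattern found in 11.3% of all tested miRNAs. The mean was 5450 ± 2419 CPM (SD, n = 9) in CLP and 37342 ± 3797 CPM (n = 6) in sham. The log2 fold change of miR-191-5p was -2.78 ± 0.28 (SE), a level 6.85-fold lower in CLP. Of the 426 tested miRNAs, 17 had a log2 fold change this low or lower, miR-191-5p included, and 2 of those, miR-191-5p and miR-423-5p, were at 1000 CPM or more in sham. By abundance within a library, miR-191-5p ranked between 21 and 44 in CLP and between 4 and 7 in sham. Among the CLP libraries it was lowest in CLP 1 and highest in CLP 5, and its SD on the log2 scale was 0.76 in CLP and 0.15 in sham. A plasma level does not tell fewer releasing cells from less RNA released per cell, and no cause of the difference was tested.

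miR-191-3p, from the other arm of the same hairpin, lay between 114 and 334 CPM in CLP, with a median of 234 CPM, and between 82.8 and 160 CPM in sham, with a median of 136 CPM. The groups overlapped: 7 of 9 CLP libraries were above every sham library, and CLP 1 and CLP 9 were not. The mean was 225 ± 66.2 CPM (SD, n = 9) in CLP and 126 ± 27.4 CPM (n = 6) in sham, and the log2 fold change was 0.84 ± 0.22 (SE). This strand was rare beside its partner in both groups. Its counts ran from 663 to 2960 in CLP and from 542 to 1403 in sham, so that counting error was small beside the spread between libraries.

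miR-425-5p, the more abundant arm of its hairpin, lay between 174 and 403 CPM in CLP, with a median of 296 CPM, and between 166 and 240 CPM in sham, with a median of 195 CPM. Here 6 of 9 CLP libraries exceeded every sham library, and CLP 1, CLP 5 and CLP 9 lay within the sham range. The mean was 294 ± 79.2 CPM (SD, n = 9) in CLP and 197 ± 28.9 CPM (n = 6) in sham, and the log2 fold change was 0.58 ± 0.20 (SE). miR-425-3p, the scarcest member, lay between 37.4 and 58.2 CPM in CLP, with a median of 44.2 CPM, and between 27.9 and 37.4 CPM in sham, with a median of 35.6 CPM. All 9 CLP libraries were above all 6 sham libraries, as in 8.45% of all tested miRNAs, but the gap was very narrow, since CLP 3 held 37.434 CPM and sham 3 held 37.429 CPM. Its mean was 45.4 ± 6.50 CPM (SD, n = 9) in CLP and 33.9 ± 3.67 CPM (n = 6) in sham, and its log2 fold change was 0.42 ± 0.16 (SE). The lowest count of any member in any library was 211, of miR-425-3p in sham 4, with an exact 95% Poisson interval of 183 to 241 that covers counting error only. The change of miR-425-3p depended on the scaling. Its log2 fold change was 0.20 ± 0.19 with library size alone, a setting that lowered the values of all 4 members. That setting shifted the median of all tested miRNAs by -0.23. After a linear trend on GC content was taken out of each library, the log2 fold change of miR-425-3p was 0.94 ± 0.20.

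**Figure D1:**
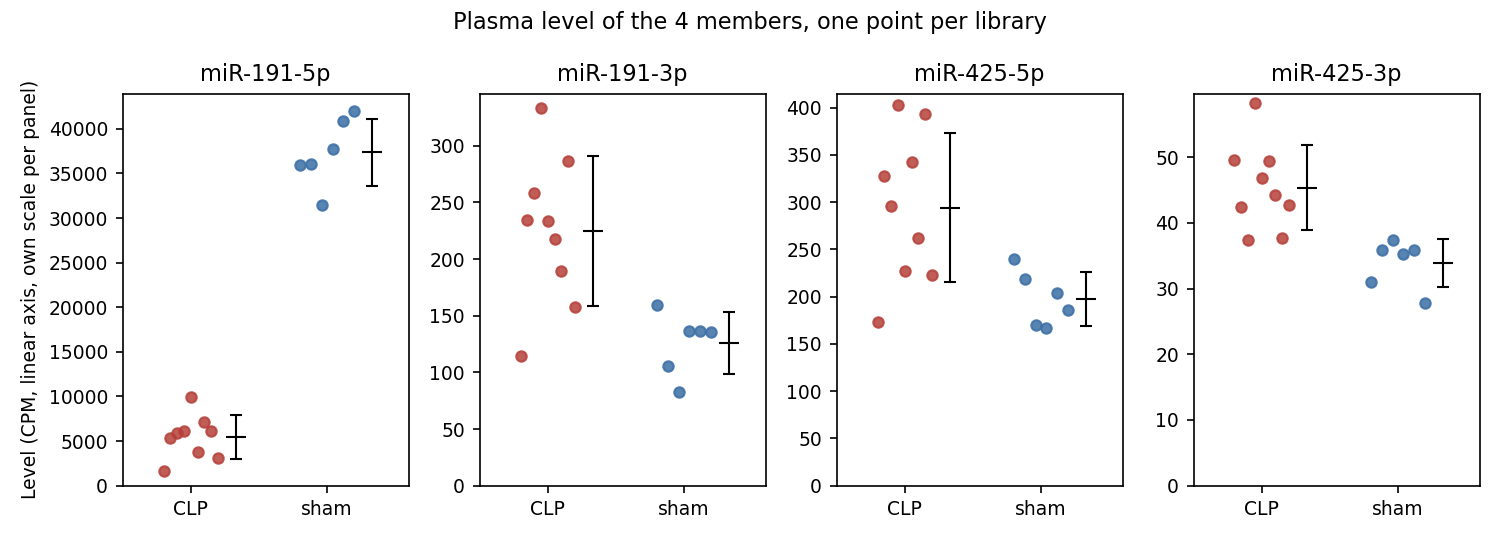
Level of each member in CPM (linear axis from 0, a scale of its own in each panel) in 9 CLP and 6 sham libraries, 1 point per library, with black marks for the mean and SD. miR-191-5p sits at 1648 to 9953 CPM in CLP and 31475 to 41940 CPM in sham without overlap, while the other 3 members have higher means in CLP.

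The ratio of the 2 arms of a hairpin does not depend on how libraries are scaled. In the CLP libraries, between 14.4 and 42.6 reads of miR-191-5p were counted per read of miR-191-3p, with a median of 21.5, and in the sham libraries between 225 and 380, with a median of 304. The groups were far apart, with the ratio of the highest CLP library, CLP 5, well below that of the lowest sham library, sham 1. On the log2 scale (pseudocount 0.5) the ratio averaged 4.50 ± 0.51 (SD, n = 9) in CLP and 8.23 ± 0.26 (n = 6) in sham, a difference of -3.73 ± 0.20 (SE). The 5p strand was therefore the major one in every library of both groups. CLP 5 and CLP 7 had the highest arm ratios among the CLP libraries, at 42.6 and 37.5 reads per read, and CLP 1 the lowest.

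The arm ratio of miR-425 differed between the groups by less than the spread between libraries. Between 3.51 and 10.4 reads of miR-425-5p were counted per read of miR-425-3p in CLP, with a median of 6.93, and between 4.53 and 7.75 in sham, with a median of 5.88. On the log2 scale the ratio averaged 2.66 ± 0.46 (SD, n = 9) in CLP and 2.53 ± 0.30 (n = 6) in sham, a difference of 0.12 ± 0.20 (SE). CLP 1 was below the sham range, CLP 3 and CLP 8 were above it, and the other 6 CLP libraries lay within it.

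Set against the neighbouring hairpin, miR-191-5p was again the member that stood apart. Between 9.50 and 43.9 reads of miR-191-5p were counted per read of miR-425-5p in CLP, with a median of 15.7, and between 150 and 227 in sham, with a median of 193. The log2 ratio averaged 4.11 ± 0.67 (SD, n = 9) in CLP and 7.57 ± 0.24 (n = 6) in sham, a difference of -3.46 ± 0.24 (SE). By contrast the log2 ratio of miR-191-3p over miR-425-5p, strands of different hairpins, averaged -0.40 ± 0.22 (SD, n = 9) in CLP and -0.67 ± 0.31 (n = 6) in sham, a difference of 0.27 ± 0.15 (SE), and the groups overlapped. As a share of the CPM of the 4 members, miR-191-5p made up 89.4% ± 3.64 (SD, n = 9) in CLP and 99.0% ± 0.125 (n = 6) in sham. The other 3 members together summed to 565 ± 142 CPM in CLP and 357 ± 46.4 CPM in sham.

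**Figure D2:**
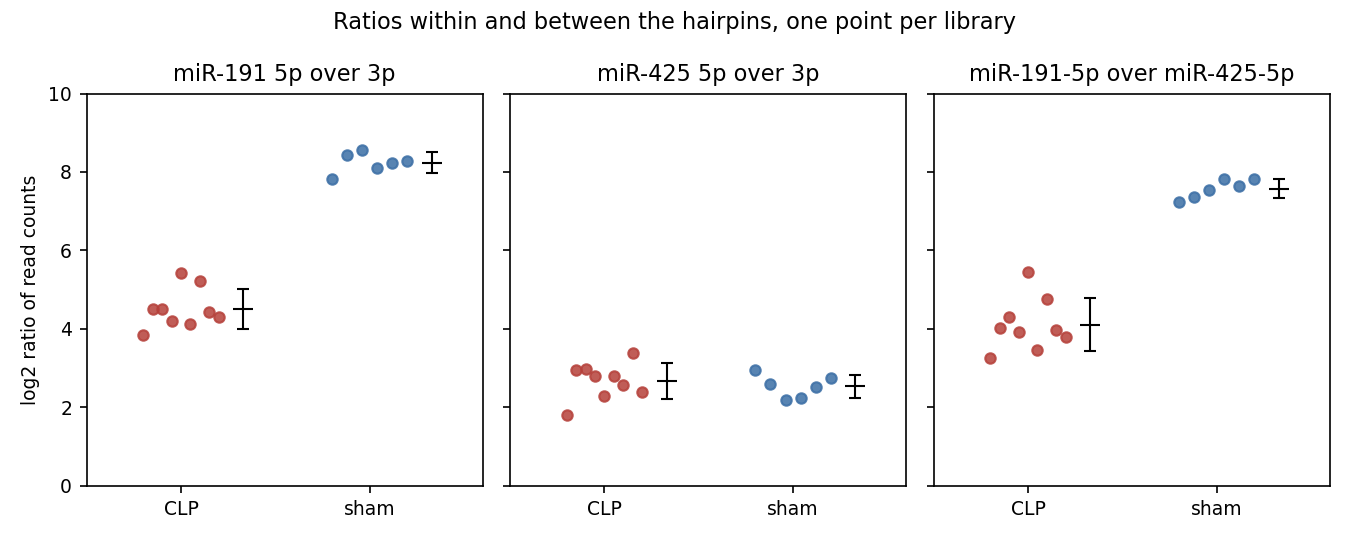
Log2 ratios of read counts (y axis, shared) for the arms of miR-191, the arms of miR-425, and miR-191-5p over miR-425-5p, in 9 CLP and 6 sham libraries, 1 point per library with mean and SD in black. Both ratios with miR-191-5p on top are separate between the groups, with differences of -3.73 and -3.46, and the miR-425 arm ratio overlaps.

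The arm ratios were compared over the 93 hairpins whose 2 arms both passed the filter in rows of their own under matching names. Arms in a row shared with another miRNA were left out. The median difference of the arm log-ratio, CLP minus sham, was 0.0036 over the 93, and the median size regardless of sign was 0.86. miR-191 had the 5th largest size of the 93, and miR-425 the 82nd. Groups did not overlap in arm ratio for 18 hairpins (19.4%), miR-191 among them. The log2 fold changes of the 2 arms had opposite signs in 35 of the 93 hairpins, again with miR-191 among them. In the Dlk1-Dio3 hairpin miR-434 the difference was -3.47 ± 0.38 (SE), in miR-423 it was -4.03 ± 0.46, the most negative among the 43 hairpins whose arms both averaged 10 CPM or more, and in miR-574 it was 5.18 ± 0.30, the most positive of them. miR-434, miR-423 and then miR-25, at -2.13 ± 0.43 with overlapping groups, were the nearest to miR-191 among these 43. Nearest to miR-425 were miR-215 at 0.06 ± 0.15 and miR-150 at 0.05 ± 0.32, in each of which both arms were lower in CLP, and let-7b at 0.23 ± 0.25.

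**Figure D3:**
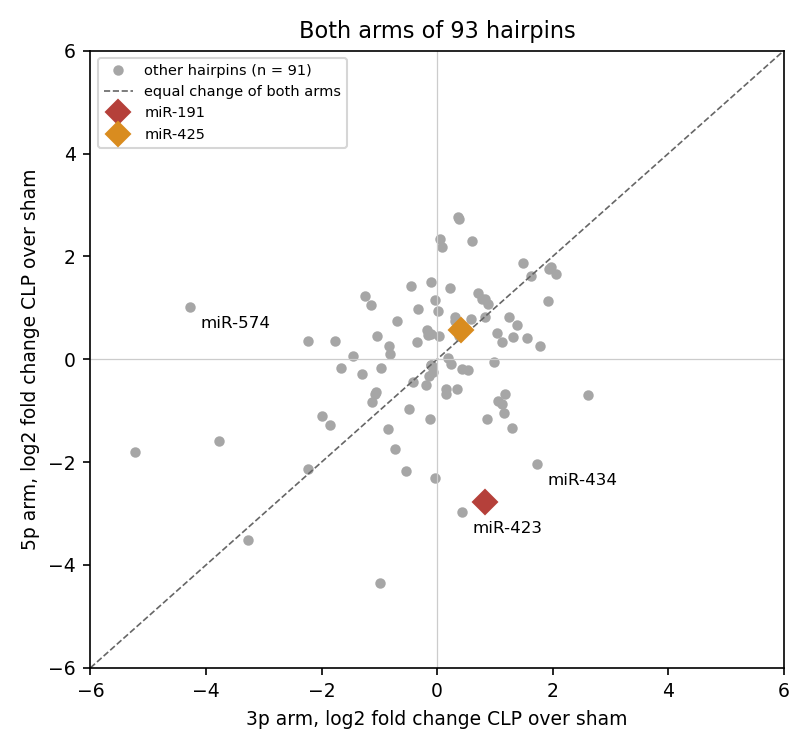
Log2 fold change, CLP over sham, of the 5p arm (y axis) against the 3p arm (x axis) for 93 hairpins, with the dashed line where both arms change equally. miR-191 lies far below the line, at -2.78 for its 5p arm and 0.84 for its 3p arm, and miR-425 lies near it, at 0.58 and 0.42.

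Because miR-191-5p and miR-425-5p have served as reference miRNAs themselves, each member was also expressed as a log2 ratio to 8 other miRNAs used for this purpose in plasma. Against 7 of the 8, miR-191-5p was lower in CLP, by differences of the mean log2 ratio from -4.78 ± 0.61 (SE) over miR-103-3p to -1.63 ± 0.19 over miR-484. In 6 of those 7 ratios every CLP library was below every sham library, and over miR-23a-3p 8 of 9 were. The exception was miR-423-5p, itself lower in CLP, over which miR-191-5p was higher by 0.69 ± 0.32. For miR-425-5p, the sign depended on the denominator: the difference was 4.15 ± 0.48 over miR-423-5p, 1.83 ± 0.17 over miR-484, 0.85 ± 0.39 over miR-23a-3p, 0.42 ± 0.31 over miR-16-5p, 0.13 ± 0.13 over miR-423-3p, 0.02 ± 0.40 over miR-93-5p, -0.31 ± 0.21 over miR-24-3p and -1.31 ± 0.46 over miR-103-3p. miR-191-3p and miR-425-3p changed sign in the same way, with 2 and 3 of the 8 differences below 0.

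**Figure D4:**
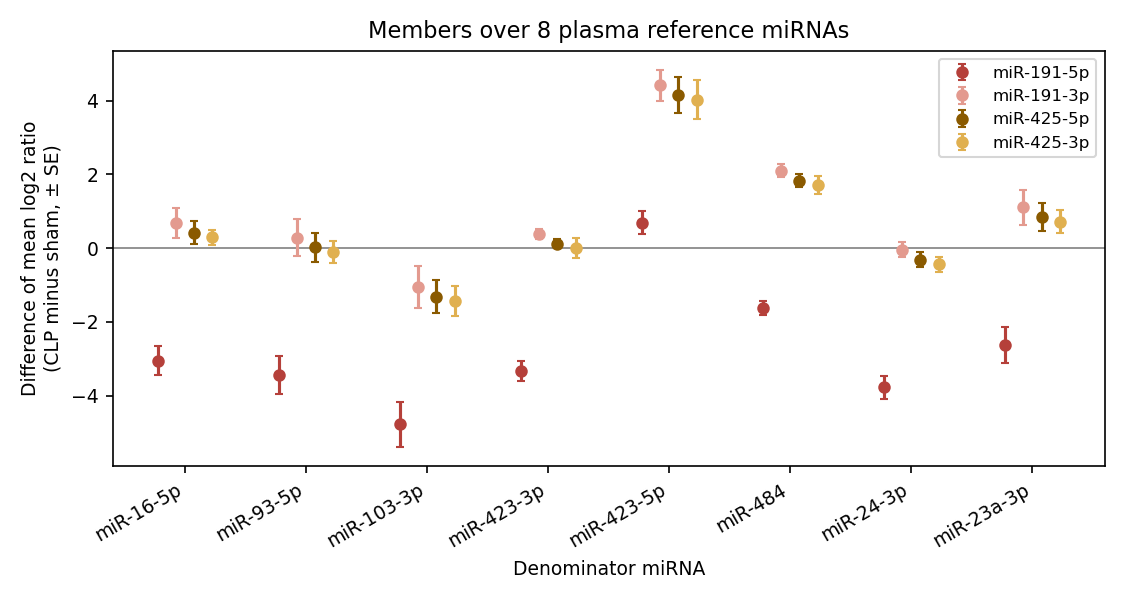
Difference between CLP and sham in the mean log2 ratio of each member over 8 plasma reference miRNAs (x axis), with error bars of 1 SE. miR-191-5p is below 0 for 7 denominators and at 0.69 for miR-423-5p, and the other 3 members lie between -1.44 and -1.05 over miR-103-3p and between 4.03 and 4.42 over miR-423-5p.

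Of these 8 reference miRNAs, 2 rose in CLP, against 25.4% of all tested miRNAs, and 2 fell, against 21.8%. Those that rose were miR-24-3p (0.84 ± 0.18, SE; edgeR adjusted p = 0.00111) and miR-103-3p (1.72 ± 0.37; edgeR adjusted p = 0.000824). Those that fell were miR-423-5p, at -2.97 ± 0.57 (edgeR adjusted p = 0.000382), and miR-484, at -1.22 ± 0.23 (edgeR adjusted p = 0.000350). The changes of miR-16-5p (0.09 ± 0.23), miR-23a-3p (-0.33 ± 0.30), miR-423-3p (0.44 ± 0.23) and miR-93-5p (0.44 ± 0.30) did not pass. The median log2 fold change was 0.26 over the 8 and 0.11 over all tested miRNAs.

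The members were also set beside lists of miRNAs known from blood cells, since miR-191 and miR-425 are made in several of these. Beside the 25.4% of all tested miRNAs that were called higher and the 21.8% called lower, 3 of 9 platelet miRNAs rose and 2 fell, and their summed level was 23140 to 38246 CPM in CLP and 18453 to 29486 CPM in sham. Of 7 red cell miRNAs 0 rose and 1, miR-451a, fell (edgeR log2 fold change -1.28 ± 0.32, adjusted p = 0.00313), and the summed level was 85234 to 383122 CPM in CLP and 160833 to 460121 CPM in sham. All members of these 2 lists were read in every library. CLP 5, the CLP library with the most miR-191-5p, also had the highest red cell sum of the CLP libraries. CLP 4, with the lowest red cell sum, held 6116 CPM of miR-191-5p, above the CLP median of 5864 CPM. CLP 1, with the least miR-191-5p, had the median red cell sum of the CLP libraries, 126727 CPM. Most of the sum was the row of miR-486a-5p and miR-486b-5p, with a mean of 157244 CPM in CLP. In sham, the red cell sum was lowest in sham 5, where miR-191-5p was at 40917 CPM, and highest in sham 2, where miR-191-5p was at 36064 CPM. With a red cell index (the log2 ratio of miR-451a to miR-23a-3p) as a covariate, the log2 fold change of miR-191-5p was -2.62 ± 0.32 (SE). The index holds miR-451a, itself lower in CLP, so this fit cannot separate red cell content from the surgery. Without CLP 5, and with no covariate, the log2 fold change of miR-191-5p was -3.01.

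Against the same 25.4% and 21.8%, 3 of 6 myeloid miRNAs rose and 0 fell, with a summed level of 1841 to 4199 CPM in CLP and 1480 to 2146 CPM in sham. These were miR-223-5p (2.78 ± 0.28, edgeR adjusted p = 4.03e-07), the activation-induced miR-155-5p (2.04 ± 0.37, edgeR adjusted p = 0.000188) and miR-147-3p (2.60 ± 0.51, edgeR adjusted p = 0.000401). The changes of miR-142a-5p (0.45 ± 0.19), miR-223-3p (0.36 ± 0.21) and miR-142a-3p (0.38 ± 0.57) did not pass. In CLP, miR-142a-5p averaged 2018 CPM and miR-223-3p 371 CPM, against 154 CPM for miR-223-5p, 9.13 CPM for miR-155-5p and 5.71 CPM for miR-147-3p. In 1 library miR-142a-3p and miR-147-3p had a count of 0. Of 6 lymphocyte miRNAs 1 rose (25.4% of all tested) and 3 fell (21.8%), with a summed level of 1851 to 2988 CPM in CLP and 1976 to 2916 CPM in sham. The part of any of these cells in the levels of the 4 members was not tested.

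Whether the members vary together among libraries of 1 group does not use the CLP against sham contrast, and was tested for all 6 pairs within CLP and within sham, 12 tests in all, on log2 CPM. In the CLP libraries miR-191-3p and miR-425-5p varied together, with Pearson's r = 0.88 (n = 9, exact two-sided permutation p = 0.00131, Benjamini-Hochberg adjusted p = 0.0157) and Spearman's rho = 0.85 (exact permutation p = 0.00607, adjusted 0.0729). Both were lowest in CLP 1 and highest in CLP 4. Without CLP 1 and CLP 9, the libraries farthest from the median, r was 0.68 over 7 libraries and did not pass (exact permutation, adjusted p = 0.544). The call was thus lost without those libraries, but leaving them out also lowers the number of libraries and narrows the range. In sham, r for the same pair was 0.44 (n = 6, exact permutation p = 0.388, adjusted 0.664), and the difference between the groups was not tested. Pairs of other miRNAs were not tested, so the call is not shown to be particular to the cluster.

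The strands of the same hairpin gave no call. For miR-191-5p with miR-191-3p, r was 0.76 in CLP (n = 9, exact permutation p = 0.0190, adjusted 0.114; rho = 0.50, exact permutation p = 0.178) and 0.0057 without CLP 1 and CLP 9. For miR-425-5p with miR-425-3p, r was -0.03 in CLP (n = 9, exact permutation p = 0.948; rho = -0.03, exact permutation p = 0.948). The other 3 CLP pairs had r between -0.18 and 0.48, and the 6 sham pairs between -0.60 and 0.69, all with adjusted p from 0.493 to 0.948. The highest of those 3, of miR-191-5p with miR-425-5p, was 0.77 without CLP 5 and -0.62 without CLP 1 and CLP 9, and passed in neither case. The values of a library share its depth and scaling, which bears on every pair.

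**Figure D5:**
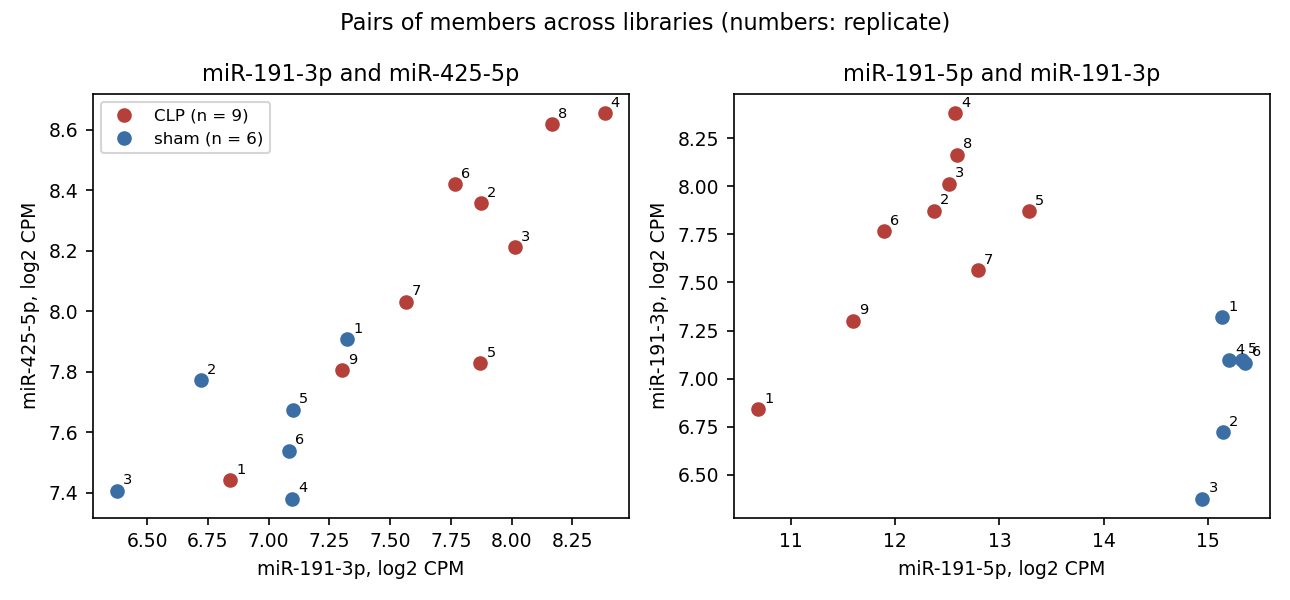
Log2 CPM of miR-425-5p against miR-191-3p (left) and of miR-191-3p against miR-191-5p (right), 1 point per library with its replicate number, for 9 CLP and 6 sham libraries. On the left the CLP points run from CLP 1 at the low end to CLP 4 at the high end, and on the right the groups fall apart along the miR-191-5p axis.

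Likeness of pattern was measured as the root-mean-square difference of centred log2 CPM over the 15 libraries, among the 249 miRNAs that averaged 10 CPM or more, where a smaller value is a closer pattern. The closest to miR-191-5p were miR-215-3p (0.44), the epithelial miR-205-5p (0.54), miR-215-5p (0.54), miR-322-3p (0.62) and miR-182-5p (0.63). All 5 had lower means in CLP, for example 64.0 CPM in CLP and 731 CPM in sham for miR-205-5p. The measure takes in the CLP against sham difference that chose the cluster, so these orders are a description and not separate evidence. The other 3 products of the cluster stood at places 142, 145 and 160 of 248 in this order, with miR-191-3p at 1.87 the farthest of them.

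miR-191-3p was closest to miR-425-5p, at 0.27, followed by miR-423-3p (0.30), miR-361-5p (0.30), miR-501-3p (0.34) and miR-99b-5p (0.37). miR-425-5p was closest to miR-423-3p, at 0.24, and next to miR-191-3p, and then came miR-9-3p (0.31), miR-99b-5p (0.33) and miR-501-3p (0.34). The miRNAs closest to miR-425-3p were the haematopoietic miR-142a-5p (0.21), miR-532-5p (0.26), miR-181a-5p (0.26), miR-223-3p (0.27) and miR-339-5p (0.28). Its partner miR-425-5p was at place 26, at 0.38. By this measure miR-191-3p and miR-425-5p, strands of different hairpins, were nearer to each other than either was to its own partner. Their differences between CLP and sham are part of that order.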

How the data were processed

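The authors deposited 1 table of expected counts (reads assigned to each mature miRNA, unscaled), whose 15 columns each name the library of 1 label. Its name gives exceRpt, a small RNA pipeline, as the source. The build named in the submitters' processing notes is mm10. Trimming, alignment and the miRNA release are not given in the sources used here. Per the labels' protocols, RNA from 100 µL of plasma was ligated to adapters at both ends, a step with sequence bias, and equal amounts of each library were pooled, so levels are relative.

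Expected counts were rounded, and 4.56% of all entries were not whole. edgeR 4.0.16 in R 4.3.3 was run with filterByExpr, TMM scaling and robust quasi-likelihood testing of 426 miRNAs, two-sided, with Benjamini-Hochberg adjustment at 0.05. SE is the size of the log2 fold change over the square root of F. log2 CPM used a prior count of 2. SE of a ratio difference combines the variances of both groups. Within-group correlations used exact permutation of pairings (scipy 1.17.1). Libraries of 1 group differed by a chi-square per degree of freedom of at least 235, so none was a copy. The members, lists and alternatives were chosen with earlier results of these data known. miRNAs were named by rule: the 4 members, the 5 closest in pattern to each, the reference list, the most abundant 4 of each other list (some in the text by count only), and hairpins nearest to the members or most extreme in arm ratio. miR-24-3p, miR-16-5p and miR-223-3p each stand in 2 lists. miR-147-3p was named after its values were seen. Alternatives were DESeq2 1.42.0, limma 3.58.1 voom with quality weights, other scalings and filters, a red cell covariate, removal of the red cell list or of a GC trend (mature GC known for 87.6% of tested miRNAs, the rest uncorrected), the replicate number as a block, and leaving out libraries.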

Additional observations from a re-analysis of the deposited data

How the results depend on the processing

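Over 27 alternatives the log2 fold change of miR-191-5p stayed between -3.01 and -2.62 and that of miR-191-3p between 0.61 and 1.05. That of miR-425-5p lay between 0.35 (library size alone) and 0.68 (without CLP 1 and CLP 5), and that of miR-425-3p moved by more than the spread between libraries to 0.20 with library size alone and 0.94 with the GC trend removed. Library size scaling shifted the median of all tested miRNAs by -0.23, and relative to that median miR-425-3p was 0.32 with both scalings. On leaving out 1 library, miR-191-5p ran from -3.01 to -2.71, miR-191-3p from 0.69 to 0.88, miR-425-5p from 0.45 to 0.61 and miR-425-3p from 0.27 to 0.44. The arm log-ratio difference of miR-191 lay between -3.84 and -3.65 over 19 alternatives and that of miR-425 between 0.03 and 0.30. That of miR-191-5p over miR-425-5p lay between -3.63 and -3.36.

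The number of miRNAs called was 201 of 426 tested in the main fit, and 184 to 213 on leaving out 1 library, with 419 to 445 tested. It was 307 of 1182 tested with no filter and 141 of 254 tested with the stricter filter. The number of member pairs called in the correlation tests was 1, and 0 without the 2 libraries farthest from the median, when fewer libraries were left. With a replicate block over 12 libraries, 152 of 402 tested miRNAs were called. The log2 fold changes in that fit were -3.01, 0.79, 0.48 and 0.41 for miR-191-5p, miR-191-3p, miR-425-5p and miR-425-3p. The paired arm log-ratio differences were -3.80 for miR-191 and 0.07 for miR-425, and that of miR-191-5p over miR-425-5p was -3.50. Deviations of same-numbered libraries correlated at -0.15 to -0.03, so no effect shared by a number was seen. This check cannot show whether the numbers mark a pairing.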
